A study of Mus musculus with 12 samples.

Results

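Sox9, the keratins Krt7, Krt8, Krt18, Krt19 and Krt23, and the epithelial surface genes Epcam and Cd24a were followed in livers of mice with CCl4-induced hepatic fibrosis. They are the genes by which bile duct cells and the ductular reaction are usually recognized, together with the keratin pair of the hepatocyte. All 8 genes were chosen by name and all 8 were listed among the 14188 genes of the protein-coding table, each through 1 transcript. Whole liver RNA was measured in 12 male mice, 6 weeks old at the start, of a strain written C57BL/8 in the labels. All 12 mice received CCl4 mixed with corn oil, 10 µl/g, by intraperitoneal injection, 2 times per week. The 6 mice of the PZH group were given Pien Tze Huang by gavage at 0.25 mg/g each day. It is a Chinese herbal medicine containing musk, ox gallstone, San qi and snake gall. The 6 mice of the control group were given double distilled water instead, and livers were taken in the eighth week. No liver without CCl4 was among the samples, so each value below sets CCl4 with PZH against CCl4 without PZH. By the study's serum indices, liver injury was greater in the control group at that time.

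Keratins form the intermediate filaments of epithelial cells, and each filament needs a type I and a type II partner. Hepatocytes make only the pair of keratin 8 (type II) and keratin 18 (type I), whereas bile duct cells add keratin 7 (type II) and keratin 19 (type I). Krt8 and Krt18 are stress-responsive, and their proteins build the Mallory-Denk bodies of injured hepatocytes. Sox9 is a transcription factor of the bile duct lineage that injured hepatocytes can also switch on. The ductular reaction is the growth of duct-like cells at the portal edge in chronic injury. Epcam, an adhesion protein, and Cd24a, a sialic-acid-bearing surface protein, mark those cells, and Krt23 is a type I keratin reported in injured liver epithelium.

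Sox9, Krt8 and Krt18 were lower in the PZH group, to between 0.255 and 0.300 of their control means, and in none of the 3 did the groups overlap. Among all genes, 17.9% were lower and 6.46% higher in the PZH group without overlap. The duct keratins Krt7 and Krt19 and the surface gene Cd24a did not pass the test, with group means within 1.17-fold of each other. Krt23, at low level, was higher in the PZH group, and Epcam did not pass the test. Genes were called at a Benjamini-Hochberg adjusted p below 0.05 from limma on log2(FPKM + 1), where FPKM is the number of fragments of a transcript scaled to its length and to the size of the library. By this rule 3 of the 8 genes fell and 1 rose, against 32.1% lower and 12.7% higher, or 44.8% in either direction, among all genes. The share called among all genes was thus large, and the counts alone set these 8 genes little apart from it. By a rule of a 2-fold change on that scale with an unadjusted p below 0.05, 3 fell and 0 rose, against 2.50% and 1.52%, or 4.02% in either direction, of all genes. Fitted as transcripts, the 8 gave the same counts, 3 lower and 1 higher, against 14.0% and 5.73% of 29883 transcripts. The median log2 difference of all genes was -0.11 as deposited and -0.00104 after median-ratio scaling, which lowered the called falls from 4560 to 2739 and raised the called rises from 1798 to 2807. Under that scaling Sox9, Krt8 and Krt18 still fell, with log2 differences of -1.48, -1.60 and -1.54.

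**Figure D1:**
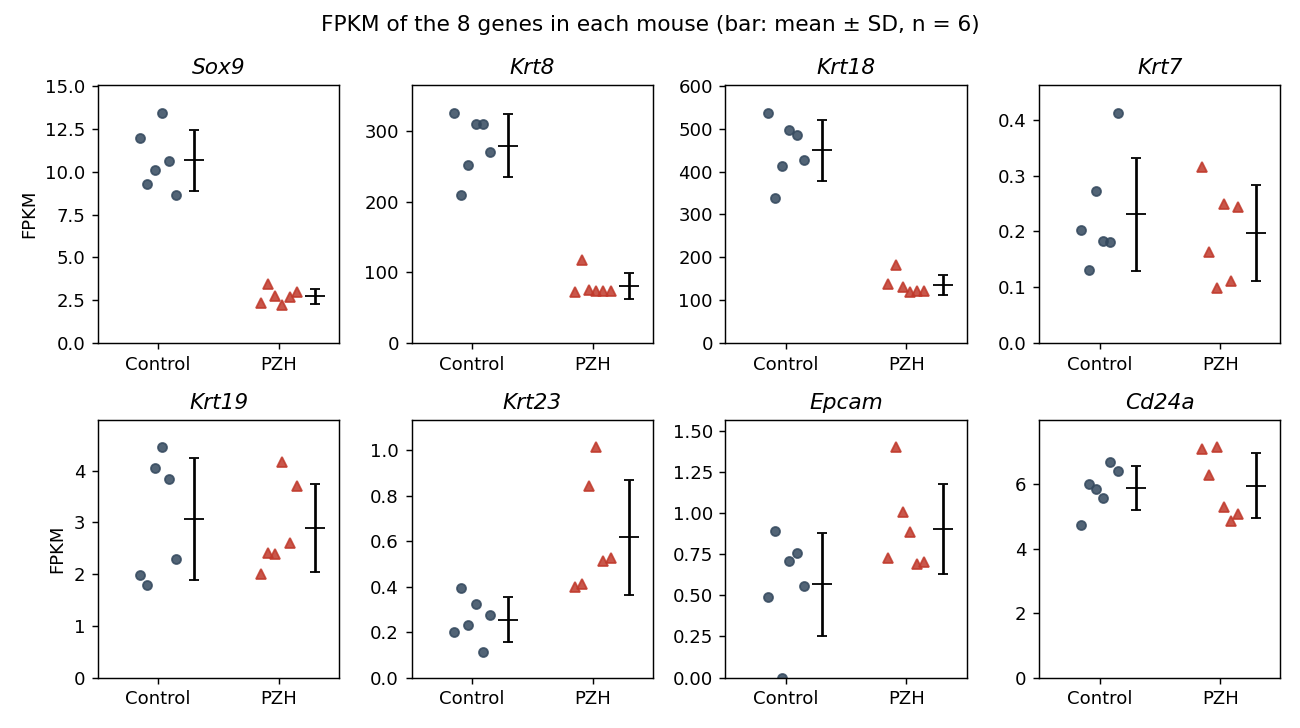
FPKM (vertical axis, linear from 0, 1 panel per gene) of the 8 genes in each of the 12 livers as points, by group, with bars for the mean ± SD of 6 mice. Sox9, Krt8 and Krt18 lie lower in all 6 PZH mice than in any control mouse, Krt23 lies higher, and the other 4 genes overlap.

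The stretches of DNA just before the first exons of the 2 hepatocyte keratins that fell, and of the keratin that rose, are shown first, because the pair lies close together in the genome. Krt8 occupies chr15:101996698-102004482 on the minus strand with 9 exons, and Krt18 occupies chr15:102028180-102032027 on the plus strand with 7 exons, as annotated by GENCODE M21 on GRCm38. Their start sites are 23698 bases apart and point away from each other, with 0 genes annotated wholly between them. Sequences are from RefSeq on GRCm38.p6, read 5′ to 3′ on the gene's own strand, and stop before the annotated exon. They span chr15:102004483-102004592 for Krt8, chr15:102027966-102028179 for Krt18 and chr11:99493138-99493370 for Krt23, and capitals mark the Sox core ACAATG.
Krt8: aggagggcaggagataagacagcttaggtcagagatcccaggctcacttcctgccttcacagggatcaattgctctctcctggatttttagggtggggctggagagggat
Krt18: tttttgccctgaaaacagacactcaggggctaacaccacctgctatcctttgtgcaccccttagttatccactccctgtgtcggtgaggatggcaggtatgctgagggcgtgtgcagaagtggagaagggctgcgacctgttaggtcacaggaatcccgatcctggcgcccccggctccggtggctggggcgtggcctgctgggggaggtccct
Krt23: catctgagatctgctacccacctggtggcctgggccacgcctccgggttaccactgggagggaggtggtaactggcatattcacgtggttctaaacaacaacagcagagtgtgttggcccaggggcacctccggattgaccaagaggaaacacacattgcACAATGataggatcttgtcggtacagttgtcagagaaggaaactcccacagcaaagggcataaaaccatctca

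Promoter sequences of 300 bases, 250 before and 50 after the RefSeq start, were found for 5 of the 8 genes, Krt7, Krt8, Krt18, Krt23 and Epcam, and not for Sox9, Krt19 and Cd24a. They were searched on both strands for 6 motifs. The Sox core ACAATG was in Krt23 alone of the 5, at position -90, and in 12.6% of 32851 promoters. The TATA box TATAAA was in Krt8 alone, as 2 overlapping matches on opposite strands at positions -3 and -1, and in 13.6% of promoters. The Rbpj core TGGGAA, the letters read by the DNA-binding protein of Notch signaling, was also in Krt8 alone, at -134, and in 25.6% of promoters. Positions count from the RefSeq start, which for Krt8 lies inside the gene as annotated by GENCODE. Only 110 bases of that window precede the GENCODE start. The TATA and Rbpj matches of Krt8 lie downstream of it and outside the sequence printed above. The GC box GGGCGG was in Krt7 and Epcam, against 35.7% of promoters. The upstream part of the Epcam window ends at chr17:87635978, while the listed Epcam transcript starts at chr17:87636682. That window thus belongs to another start site than the transcript measured. The AP-1 site TGANTCA, in 7.81% of promoters, and the Tead core GGAATG, in 14.7%, were in none of the 5. Krt18 held none of the 6 motifs, so the 2 keratins that fell together had no searched motif in common within these windows.

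Sox9 lies at chr11:112782224-112787760 on the plus strand with 3 exons. Sox9 FPKM was 2.22, 2.70 and 3.42 (lowest, median and highest) in the 6 PZH mice and 8.64, 10.4 and 13.5 in the 6 control mice. The groups did not overlap, and the lowest control value was 2.53 times the highest PZH value. Mean FPKM was 2.73 ± 0.430 (SD, n = 6) with PZH and 10.7 ± 1.78 (SD, n = 6) in control, a 3.92-fold difference. The log2 difference (PZH minus control) was -1.64 with a standard error of 0.11 and a limma adjusted p of 5.15e-06. Its 95% interval ran from -1.89 to -1.40, and the exact permutation p over all labellings of the 12 mice was 0.0022 (two-sided), the smallest this design can give. Sox9 had the 66th largest fall of the 14188 genes but the third smallest p-value, with a small standard error on the log2(FPKM + 1) scale. That scale reduces both the difference and the spread of a gene at this level. With a pseudocount of 0.1 the Sox9 log2 difference was -1.93. Among genes ordered by mean FPKM it stood 3879th in control and 8205th with PZH.

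Krt8 and Krt18 were the most abundant of the 8 genes and moved together. Krt8 FPKM was 71.5, 73.1 and 118 (lowest, median and highest) with PZH and 209, 290 and 326 in control. Krt18 FPKM was 118, 126 and 182 with PZH and 339, 457 and 538 in control. Neither gene's groups overlapped, and in both the lowest control value was at least 1.77 times the highest PZH value. Krt8 averaged 80.4 ± 18.3 FPKM (SD, n = 6) with PZH and 279 ± 44.4 (SD, n = 6) in control, a 3.47-fold difference. Its log2 difference was -1.79 (standard error 0.14, 95% interval -2.13 to -1.46, limma adjusted p 7.33e-06). Krt18 averaged 135 ± 24.2 FPKM (SD, n = 6) with PZH and 450 ± 71.4 (SD, n = 6) in control, a 3.33-fold difference. Its log2 difference was -1.73 (standard error 0.13, 95% interval -2.03 to -1.43, limma adjusted p 6.59e-06). Each exact permutation p was 0.0022. In control livers Krt18 ranked 78th and Krt8 136th of all genes by FPKM, and with PZH they ranked 298th and 513th. The 2 falls were the 54th and 47th largest. Because whole liver was measured, fewer cells of a type and less RNA per cell cannot be told apart for any of these genes. Of the 31-base words of the Krt8 transcript, 36.0% also occur in transcripts of other genes, mainly the pseudogene Krt8-ps, against 11.4% for Krt18, so the share of reads assigned to Krt8 rather than to that copy is uncertain.

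**Figure D2:**
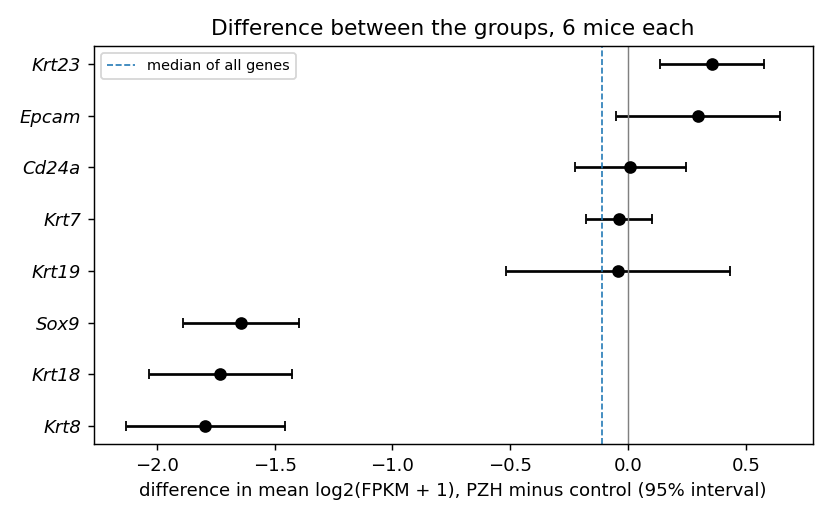
Log2 difference in log2(FPKM + 1), PZH minus control, for the 8 genes, with 95% intervals as bars, zero as a solid line and the median of all genes as a dashed line. Intervals of Sox9, Krt8 and Krt18 lie at or below -1.40, that of Krt23 above zero, and those of Krt7, Krt19, Epcam and Cd24a include zero.

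Krt7 and Krt19, the keratins that set duct cells apart from hepatocytes, did not pass the test. Krt19 lies at chr11:100140810-100146120 on the minus strand with 6 exons. Krt19 FPKM was 2.01, 2.51 and 4.16 (lowest, median and highest) with PZH and 1.79, 3.06 and 4.45 in control, and the ranges overlapped nearly whole. Its means were 2.88 ± 0.850 and 3.07 ± 1.17 FPKM (SD, n = 6 each). The log2 difference was -0.04 (standard error 0.19, limma adjusted p 0.877). Its 95% interval, -0.52 to 0.43, does not reach the falls of Krt8, Krt18 or Sox9, although smaller changes of Krt19 in either direction remain within it. Krt7 lies at chr15:101412402-101430313 on the plus strand with 9 exons. Krt7 FPKM was 0.0983, 0.204 and 0.315 with PZH and 0.131, 0.193 and 0.413 in control. Its log2 difference was -0.04 (standard error 0.07, 95% interval -0.18 to 0.10, limma adjusted p 0.684). Krt7 was the lowest of the 8 genes, resting on an estimated 11 to 55 fragments per liver, and a change of a low gene is understated on the log2(FPKM + 1) scale.

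Cd24a, at chr10:43579169-43584265 on the plus strand with 2 exons, did not pass the test either. Cd24a FPKM was 4.86, 5.78 and 7.14 with PZH and 4.73, 5.92 and 6.70 in control, with means of 5.95 ± 1.02 and 5.88 ± 0.690 (SD, n = 6 each). The log2 difference was 0.01 (95% interval -0.23 to 0.24, limma adjusted p 0.951). Of its 31-base words 7.11% are shared with transcripts of other genes. Epcam, at chr17:87636682-87651129 on the plus strand, had 1 of its 4 annotated protein-coding transcripts listed, with 9 exons. Epcam FPKM was 0.691, 0.805 and 1.40 with PZH and 0.634 at the median of control, where the highest was 0.888 and control mouse 3 was listed at 0. Its log2 difference was 0.30 (standard error 0.14, 95% interval -0.05 to 0.64, limma adjusted p 0.113, exact permutation p 0.0714). Epcam therefore did not pass the test as deposited, while after median-ratio scaling its difference was 0.37 with an adjusted p of 0.0457. The size of the Epcam difference rested on the control liver listed at 0 and on the scale, with 0.17 without control mouse 3 and 0.83 with a pseudocount of 0.1.

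Krt23 was the only one of the 8 genes to rise. It lies at chr11:99477974-99493137 on the minus strand with 8 exons. Krt23 FPKM was 0.397, 0.520 and 1.01 (lowest, median and highest) with PZH and 0.114, 0.252 and 0.393 in control. The groups did not overlap, but the lowest PZH value and the highest control value lay side by side. Means were 0.618 ± 0.252 and 0.256 ± 0.0976 FPKM (SD, n = 6 each), a 2.42-fold difference. The log2 difference on the log2(FPKM + 1) scale was 0.36 (standard error 0.10, limma adjusted p 0.0102, exact permutation p 0.0022) and 0.99 with a pseudocount of 0.1. An estimated 20 to 52 fragments per PZH liver and 5 to 20 per control liver stood behind these values, so Krt23 rests on few reads. With 3 genes lower and 1 higher, groups that did not overlap made up 17.9% (lower) and 6.46% (higher) of all genes.

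The order of the genes by FPKM, which is per length of transcript, differed between the groups at Sox9. In control it ran Krt18, Krt8, Sox9, Cd24a, Krt19, Epcam, Krt23 and Krt7, and only the last 3 overlapped their neighbours in that order. With PZH it ran Krt18, Krt8, Cd24a, Krt19, Sox9, Epcam, Krt23 and Krt7. Here Krt19 and Sox9 overlapped, as did Epcam and Krt23, while Krt23 and Krt7 did not. The ratio of Krt19 to Sox9 FPKM was between 0.705 and 1.87 in PZH mice and between 0.166 and 0.401 in control mice, so Sox9 exceeded Krt19 in all 6 control livers and in 4 of 6 PZH livers.

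Keratins of the same type were then compared within each liver, to ask whether the hepatocyte keratin and the duct keratin changed differently. The measure was the difference of log2(FPKM + 1) between 2 genes of a mouse, and 4 such ratios were tested with two-sided exact permutation tests adjusted over the 4. Krt8 over Krt7 (type II) was 6.07 ± 0.32 with PZH and 7.82 ± 0.26 in control (SD, n = 6 each), a change of -1.75 (exact permutation p 0.0022, adjusted 0.00433). Krt18 over Krt19 (type I) was 5.14 ± 0.47 and 6.83 ± 0.41, a change of -1.69 (exact permutation p 0.0022, adjusted 0.00433). The hepatocyte keratin thus fell relative to the duct keratin in both types, and neither ratio's groups overlapped. Krt7 was at most 0.413 FPKM in any mouse and so contributes little on this scale. The Krt8 over Krt7 change therefore largely restates the Krt8 fall of -1.79 and adds little to it. With a pseudocount of 0.1 that change was -1.65. Because 1 is added to each value, the levels given here are not ratios of FPKM. Krt7 over Krt19 was -1.67 ± 0.30 and -1.68 ± 0.44, with an exact permutation p of 0.985. Krt8 over Krt18 was -0.75 ± 0.11 and -0.69 ± 0.03, a change of -0.06 (exact permutation p 0.210, adjusted 0.280).

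**Figure D3:**
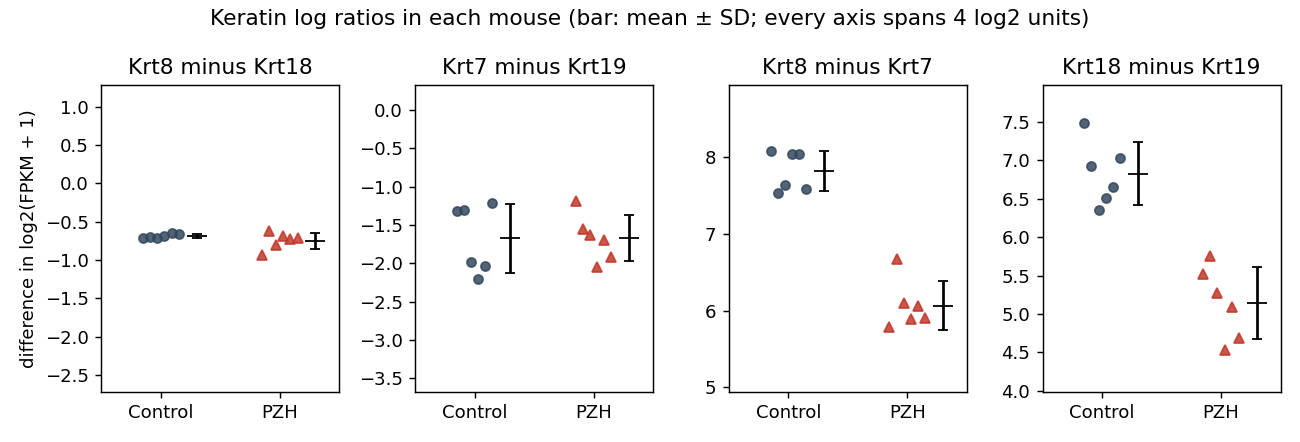
The 4 within-liver keratin log ratios (difference in log2(FPKM + 1), vertical axis) for each mouse as points, by group, with bars for the mean ± SD of 6 mice and the same axis span in every panel. The ratios of Krt8 to Krt7 and of Krt18 to Krt19 are lower in every PZH mouse than in any control mouse, while those of Krt8 to Krt18 and of Krt7 to Krt19 overlap.

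On the FPKM scale, Krt8 and Krt18 summed to 191 to 300.1 in PZH livers and to 548 to 864 in control livers. Krt7, Krt19 and Krt23 together made up 1.75 ± 0.650% of the FPKM of the 5 keratins with PZH and 0.488 ± 0.146% in control (SD, n = 6 each). The higher share went with a smaller sum of the hepatocyte pair. Krt7, Krt19 and Krt23 themselves summed to 2.72 to 5.43 FPKM with PZH and 2.32 to 4.95 in control. The ratio of Krt8 to Krt18 FPKM was 0.594 ± 0.0429 with PZH and 0.621 ± 0.0123 in control, and the 2 ranges, 0.521 to 0.646 and 0.607 to 0.638, overlapped while both genes fell.

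**Figure D4:**
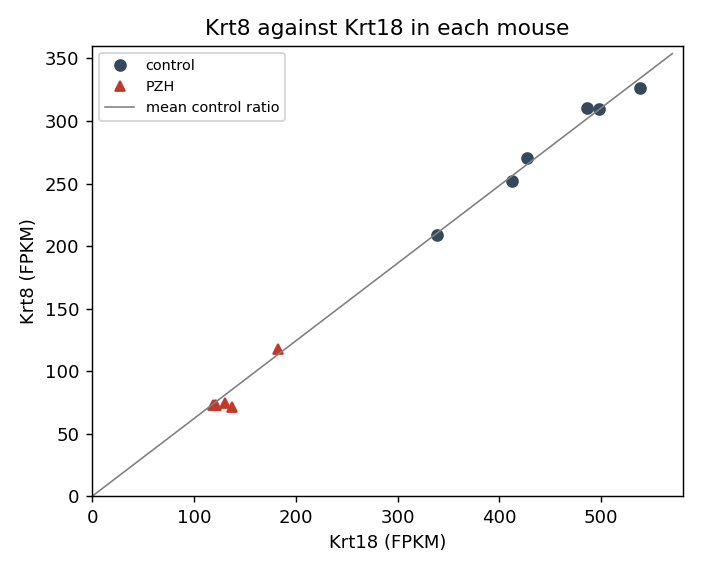
Krt8 FPKM against Krt18 FPKM in the 12 livers, 1 point per mouse, by group, with a line for the mean control ratio of Krt8 to Krt18. The control points lie at 339 to 538 Krt18 FPKM close to that line, and the PZH points lie at 118 to 182 with PZH mouse 2 highest.

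Within the control group the 2 keratins followed each other from mouse to mouse. The correlation of Krt8 with Krt18 over the 6 control mice was r = 0.993 (exact permutation p 0.00278, adjusted over 6 relations 0.0167) and rho = 0.943 (p 0.0167 by exact permutation, adjusted 0.1). Without the 2 mice farthest from the median r was 0.982. In the PZH group r was 0.931 (exact permutation p 0.121) and rho was 0.371 (exact permutation p 0.497). Krt7 with Krt19 gave r = 0.214 with PZH and -0.0257 in control, and Sox9 with Krt19 gave -0.215 and 0.476, none with a p below 0.05. Removing each group's mean and taking all 12 mice as a description, Sox9 was most like Wsb1 (r = 0.903), Lbp (0.902), Cyb561 (0.881) and Jam2 (0.852) among 6369 genes with a mean of at least 5 FPKM. Lbp encodes a plasma protein of the acute phase that binds bacterial lipopolysaccharide, and its FPKM was 23.2 with PZH and 61.1 in control. Sox9 gave 0.715 with Krt8 and 0.702 with Krt18 in this measure, but 0.234 with Krt19. Krt18 gave 0.957 with Krt8, and the genes outside the 8 that were most like it were Taf2 (0.972), Emd (0.945), Smndc1 (0.936) and Atf4 (0.910), a transcription factor of the stress response.

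Other genes of the same biology were taken from lists of textbook members and are given by count and median log2 difference, beside a median of -0.11 and 32.1% lower over all genes. After median-ratio scaling 2739 of all 14188 genes fell and 2807 rose. Of 36 listed biliary and ductular markers 10 fell, 4 rose and 22 did not pass the test, with a median of -0.03, and after median-ratio scaling 6 fell and 5 rose. Cdh1, the epithelial cadherin, fell from 40.4 to 21.3 FPKM (-0.93), and Sox4, a Sox factor that acts with Sox9 in bile duct formation, fell from 5.18 to 3.09 FPKM (-0.56). Atp1b1, a subunit of the sodium pump, rose from 18.7 to 28.4 FPKM (0.60). The 2 most abundant markers, Clu and Spp1, had control and PZH means of 549 and 449 FPKM and of 121 and 94.1 FPKM and did not pass the test. With 44.8% of all genes called in either direction, the 14 called of 36 markers are no result about the list.

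**Figure D5:**
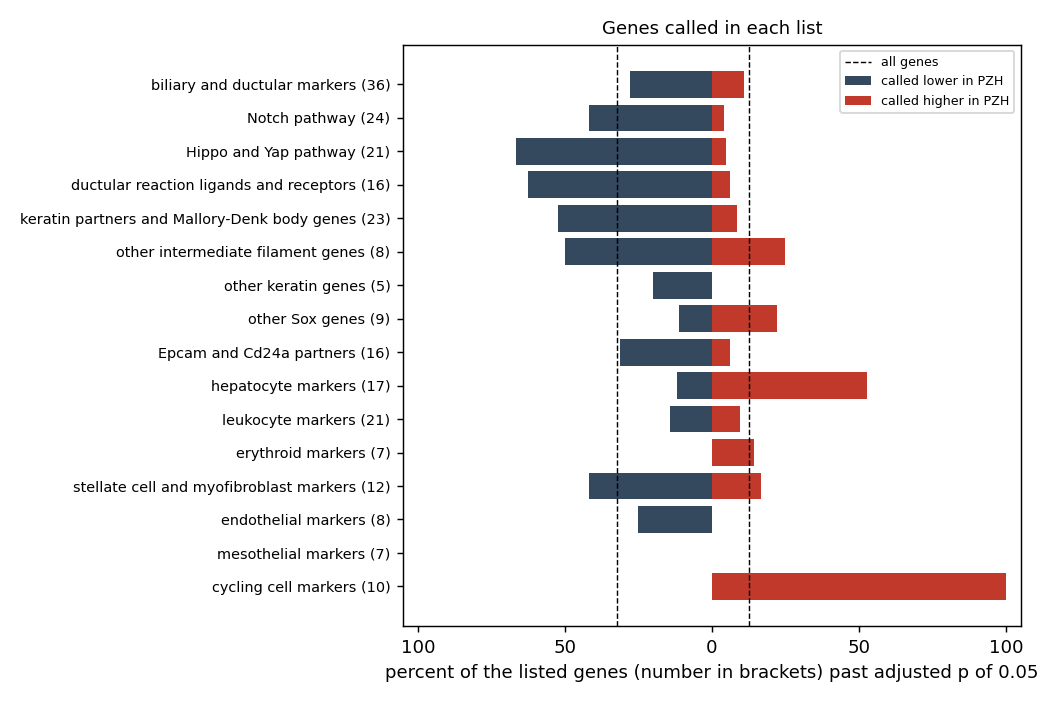
Percent of the genes of each list (number listed in brackets) called lower in the PZH group, to the left of 0, and called higher, to the right, with dashed lines at the 32.1% and 12.7% of all genes. Of the Hippo and Yap list 14 of 21 genes are lower, and in the cycling cell list all 10 are higher.

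Among genes that act upstream of a ductular reaction, 14 of 21 Hippo and Yap pathway genes fell and 1 rose (median -0.45), of which 7 fell and 2 rose after median-ratio scaling. The Yap targets Ccn1 and Ccn2 fell from 10.4 to 2.82 FPKM (-1.53) and from 7.88 to 3.05 FPKM (-1.12), and the DNA-binding partner Tead1 also fell (-0.90). Yap1 itself fell from 24.9 to 14.9 FPKM (-0.72), and the low target Ankrd1 fell from 0.893 to 0.307 FPKM (-0.52). The targets Axl and Amotl2 did not pass the test, and after median-ratio scaling Axl was called higher (0.25, limma adjusted p 0.0476). Genes that restrain Yap, namely Stk3, Stk4, Sav1, Lats1, Lats2, Mob1a, Mob1b and Nf2, were among those that fell as deposited. After median-ratio scaling only Mob1b of these restraining genes still passed the test (limma adjusted p 0.00403). Yap1, Tead1, Ccn1, Ccn2 and Ankrd1 were still called lower under that scaling. Because the list holds genes of both roles, its count gives no direction of Yap activity, which was not tested. Of 24 Notch pathway genes 10 fell and 1 rose (median -0.18), and 7 fell and 2 rose after median-ratio scaling. The share of this list called in either direction was close to the 44.8% of all genes, so its counts are no result about the list. The ligand Jag1, needed for duct formation, fell from 3.38 to 1.92 FPKM (-0.59). The target Hes1 fell from 6.02 to 3.71 FPKM (-0.58), but had an adjusted p of 0.0855 after median-ratio scaling. Of 16 ligands and receptors of the ductular reaction 10 fell and 1 rose (median -0.44), and 7 fell and 2 rose after median-ratio scaling. Tnfrsf12a, the receptor for the duct cell mitogen TWEAK, fell from 46.5 to 5.42 FPKM (-2.89, limma adjusted p 1.39e-05), with a PZH range of 3.06 to 9.68 and a control range of 24.9 to 63.0. The growth factor Areg (-1.38), the oncostatin M receptor Osmr (-1.33) and the cytokine Il33 (-1.17) fell as well.

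Of 23 keratin partners and Mallory-Denk body genes 12 fell and 2 rose (median -0.57), with 11 and 4 after median-ratio scaling. Hspb1, a small heat shock protein found on keratin filaments, fell from 154 to 11.3 FPKM (-3.56). Sqstm1, the p62 protein of Mallory-Denk bodies, fell from 366 to 133 FPKM (-1.42), with values of 123 to 149 with PZH and 255 to 520 in control. Hspa1a (-1.34) and Hspa1b (-1.47) also fell, although these near-identical genes share reads and their split is uncertain. Of 8 other intermediate filament genes 4 fell and 2 rose (3 and 2 after median-ratio scaling), among them Lmna (-1.11), Nes (-0.77) and Des (-0.47), which fell. Of 5 other keratin genes only Krt80 fell (-0.26, limma adjusted p 0.0466), and it no longer passed after median-ratio scaling. Of 9 other Sox genes Sox4 fell while Sox6 (0.32) and Sox5 (0.26) rose, so the called genes of the family moved in both directions. Of 16 partners of Epcam and Cd24a 5 fell and 1 rose (5 and 2 after median-ratio scaling), led by Cd44 (-1.02). The share of these partners called was no higher than the 44.8% of all genes, so their counts are no result about that list.

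Markers of other cells moved in part with the same contrast. Of 17 hepatocyte markers 9 rose and 2 fell (median 0.34), with 13 and 1 after median-ratio scaling, and their summed FPKM ran from 48460 to 66750 with PZH and from 30760 to 44690 in control. Alb, serum albumin, rose by a log2 difference of 0.68 in livers in which Krt8 and Krt18 fell, while Fgb, a fibrinogen chain, fell (-1.17). Of 12 stellate cell and myofibroblast markers 5 fell, among them Timp1 (-2.13) and Acta2 (-0.92), and 2 rose (5 and 4 after median-ratio scaling), and the summed FPKM of 138 to 231 and 124 to 201 overlapped. Of 21 leukocyte markers 3 fell and 2 rose (1 and 5 after median-ratio scaling), with overlapping sums of 323 to 605 and 290 to 478 FPKM. Of 8 endothelial markers 2 fell and 0 rose (1 and 1 after median-ratio scaling), 1 of 7 erythroid markers rose and 0 of 7 mesothelial markers passed the test (limma). Summed biliary markers ran from 677 to 809 FPKM with PZH and from 686 to 1077 in control, also overlapping. Clu made up most of that sum, with means of 449 and 549 FPKM, and Alb most of the hepatocyte sum, with means of 38440 and 24060 FPKM, so these sums say little of the other markers. The part of these cell types in the values of the 8 genes was not tested. Library depth was inferred from the smallest increments in FPKM and lay between 26.8 and 42.8 M fragments, with group medians of 30.3 (PZH) and 30.05 (control).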

How the data were processed

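Ribosomal-RNA-depleted, strand-specific libraries were read as 150 bp pairs. According to the study's methods the reads were aligned with HISAT2 (2.1.0) and transcripts were quantified with StringTie (1.3.5) against Ensembl release 95. The authors deposited FPKM per transcript, normalized to library size and transcript length, with no counts. Transcripts were matched to GENCODE M21 (29876 of 29883 found) and FPKM were summed per gene. Depth was recovered only approximately. limma (3.58.1, R 4.3.3) compared log2(FPKM + 1) of 6 PZH and 6 control mice, without covariates, with Benjamini-Hochberg adjustment over all 14188 genes, and likewise over transcripts. Exact permutation tests served for single values, and 95% intervals used the spread of each gene alone. On simulated data with log2 changes of 1, 93% were recovered over genes and 74% over transcripts. The changes were placed only where the control mean of log2(FPKM + 1) was above 2. These rates therefore do not cover Krt7, Krt19, Krt23 or Epcam. The members and lists were chosen with earlier results of these data known. The genes named from each list were at most 4 called genes with the largest change and a mean of at least 1 FPKM, and the 2 most abundant of a cell type list. Further genes of the Hippo and Yap list, and Krt80, were named outside this rule. Alternatives were another pseudocount, a filter, other scalings, leaving out each mouse, and a block on the mouse number. The separate table of long noncoding transcripts was not used. No batch is given in the labels.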

Additional observations from a re-analysis of the deposited data

Results flagged for a closer look

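Values of each of 24 groups of 6 mice were examined for a mouse far from the rest, and 3 stood out, all in PZH mouse 2. Chance gives about 1 such case in 20 groups, and the 3 values share the same mouse and the same 2 genes. Krt8 was 118 FPKM in this mouse, and its gap to the next PZH mouse was 0.94 of the group's range, against a critical value of 0.625. Krt18 was 182 FPKM, with a gap of 0.706 of the range. The log ratio of Krt8 to Krt7 was 6.67 in this mouse, with a gap of 0.647 of the range. Both keratins of PZH mouse 2 were still below those of every control mouse, and without it the log2 differences (PZH minus control) of Krt8 and Krt18 were -1.91 and -1.82.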

How the results depend on the processing

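Sox9, Krt8 and Krt18 were called lower in all 20 alternatives run, with log2 differences of -1.93 to -1.48, -1.91 to -1.60 and -1.82 to -1.54. Krt23 was called in the 19 in which it was tested. Members called higher numbered 0 with a mean FPKM of at least 1, a filter that removes Krt23, and 2 with median-ratio scaling. Transcripts called higher numbered 0 with that filter and 0 with the replicate block, and 0 to 1 when each mouse was left out. Krt7, Krt19 and Cd24a had no stable sign. Their log2 differences were -0.0669 to 0.0016, -0.141 to 0.0514 and -0.0417 to 0.0564 when each mouse was left out, with 0.101 for Krt19 and 0.174 for Cd24a after median-ratio scaling, -0.0274 for Cd24a with an equal sum per mouse and -0.157 for Krt7 with a pseudocount of 0.1. The Krt7 to Krt19 ratio changed by -0.111 with a pseudocount of 0.1 and by -0.101 to 0.0965 when each mouse was left out. The Krt8 to Krt18 change was -0.0865 to -0.0257, and at -0.0865, without PZH mouse 2, it passed the test. Mouse numbers did not pair the samples: correlations of same-numbered mice were -0.0732 to 0.0763, and 2 of 12 mice correlated best with their own number. With the paired sign-flip test over 6 pairs, whose smallest p is 0.03125, the Krt8 to Krt7 change of -1.75 and the Krt18 to Krt19 change of -1.69 no longer passed (adjusted exact permutation p 0.0625), because of that limit. Each cause not named was not tested. The few fragments of Krt7, Krt23 and Epcam limit what these data can show for them.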

Other observations

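Genes of dividing cells rose in the PZH group, with all 10 of the cycling markers called higher against 12.7% of all genes, and also after median-ratio scaling. Mki67 FPKM was 0.423, 0.628 and 0.889 (lowest, median and highest) in control and 2.08, 2.91 and 4.10 with PZH, and the groups did not overlap. Birc5 (1.32), Top2a (1.21) and Ccna2 (1.13) rose alongside Mki67 (1.29) on the log2 scale. Krt7 and Krt19 showed no called change in the same livers.

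Among hepatocyte markers, Cyp2e1, the enzyme that activates CCl4, rose from 206 to 972 FPKM (log2 difference 2.24), and G6pc, the last enzyme of glucose release, rose as well (1.67). Among stellate cell genes Reln (0.98) and Col3a1 (0.62) rose while Tagln (-1.38) fell, so members of that list moved in both directions.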
